A study of Mus musculus with 30 samples.

Results

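The 9 genes described here are *Bcl2*, *Bcl2l1*, *Mcl1*, *Bax*, *Bak1*, *Bid*, *Bbc3*, *Pmaip1* and *Endog*, the core of the BCL2 family together with a nuclease of the death programme. They were taken by symbol from the gene names of both deposited tables, in which each symbol stood for 1 row, out of 54838 genes in kidney and 55487 in gastrocnemius. RNA-seq counts were available from 30 libraries of C57BL/6J male mice, 5 for each of 3 groups in each tissue. All mice lived at thermoneutrality (30 to 32 °C) from 6 weeks of age. CD mice ate the chow diet and WD mice the western diet from Week 7, and both were gavaged with water. WD + CHP mice ate the western diet and were given cyclo(His-Pro) (CHP), a cyclic dipeptide formed from thyrotropin-releasing hormone, by gavage at 20 mg/kg 3 times a week from Week 7. Tissues were taken at Week 24 after 3 h without food, and every group therefore shared sex, strain, housing temperature and fast. The groups of the study held fewer mice than the 10 libraries of both tissues together, so some mice gave both, but no source used here says whether the kidney and the gastrocnemius of a given number came from the same mouse.

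Mitochondrial apoptosis is set by contacts between the BCL2 proteins. The guardians BCL2, BCL-XL (*Bcl2l1*) and MCL1 hold the pore-forming effectors BAX and BAK (*Bak1*) in check, and the BH3-only proteins BID, PUMA (*Bbc3*) and NOXA (*Pmaip1*) release or activate those effectors. Once the outer mitochondrial membrane is open, cytochrome c starts the caspases and endonuclease G (*Endog*), a nuclease of the intermembrane space that also acts on mitochondrial DNA, can reach the nucleus. Skeletal muscle fibres and tubule cells are long-lived, and MCL1 also has a form in the mitochondrial matrix that supports respiration.

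Total counts ran from 37189192 to 38211422 per kidney library and from 50319024 to 53282969 per gastrocnemius library. All 9 genes had enough counts to be tested in kidney and 8 in gastrocnemius, where *Pmaip1* had 1 to 16 counts per library. The extraction text of the labels names liver alone as the starting tissue, whereas the methods of the study name all the tissues. All 8 proximal tubule markers were kept in kidney against 1 of 8 in gastrocnemius, and all 10 muscle fibre markers were kept in gastrocnemius against 3 of 10 in kidney, so both tables held the tissue they are named for. The sum of 5 liver markers stood apart in 1 kidney WD library, at 784 CPM (counts scaled to library size) against a WD median of 258. The same sum reached 58.5 CPM in 1 gastrocnemius CD library and 58.3 CPM in 1 gastrocnemius WD library, against a highest value of 2.26 CPM under WD + CHP. By a chi-square of counts per gene between libraries of 1 group, gastrocnemius WD replicate 5 stood apart over all genes, at 33.9 to 69.0 against the other WD libraries, which were 14.9 to 35.9 from each other. In gastrocnemius CD, replicates 1 and 2 were 30.7 to 47.2 from replicates 3 to 5, against 15.5 to 17.6 within these sets. In gastrocnemius WD + CHP, replicates 2 and 3 were 8.99 apart and 17.0 to 32.6 from the other 3, which were 15.6 to 18.1 from each other. Because these are bulk tissues, fewer cells of a type and less RNA per cell cannot be told apart.

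The promoter windows of *Endog* and *Bcl2* are shown because these genes passed the test in gastrocnemius, *Endog* in both comparisons with WD + CHP and *Bcl2* in 1 of them. They come from RefSeq (GRCm38.p6) and run from 250 bases before to 50 bases after an annotated start, 5′ to 3′ on the gene's strand, at chr2:30171274-30171573 on the plus strand for *Endog* and chr1:106714241-106714540 on the minus strand for *Bcl2*. Capitals mark GC boxes (GGGCGG on either strand) and CCAAT boxes (CCAAT on either strand). Windows were found for 8 of the 9 genes.
Endog: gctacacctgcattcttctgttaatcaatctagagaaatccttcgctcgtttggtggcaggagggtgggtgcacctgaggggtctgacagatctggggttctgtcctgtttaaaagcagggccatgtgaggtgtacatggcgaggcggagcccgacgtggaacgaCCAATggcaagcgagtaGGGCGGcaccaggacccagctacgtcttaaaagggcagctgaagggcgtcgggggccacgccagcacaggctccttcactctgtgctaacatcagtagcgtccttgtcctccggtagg
Bcl2: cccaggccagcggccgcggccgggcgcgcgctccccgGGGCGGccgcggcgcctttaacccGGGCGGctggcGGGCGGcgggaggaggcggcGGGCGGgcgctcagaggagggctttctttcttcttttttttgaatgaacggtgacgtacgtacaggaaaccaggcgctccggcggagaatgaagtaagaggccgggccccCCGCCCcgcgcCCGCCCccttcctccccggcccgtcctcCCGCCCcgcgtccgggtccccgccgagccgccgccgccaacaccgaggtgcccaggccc
The *Endog* window was 57.7% GC with 15 CpG sites, a CCAAT box whose first base lay at -85 and a single GC box at -68 from the start. The *Bcl2* window was 76.0% GC with 44 CpG sites and 7 GC boxes, from -213 to -9, and held no CCAAT box. Over 32851 windows of the same length, 35.7% held a GC box and 37.4% a CCAAT box, with a median GC content of 52.7% and 7 CpG sites. Among the other members, the *Bax* window (chr7:45466849-45467148, minus strand) held a p53 half-site at -201, present in 8.36% of all windows, and E-boxes (CACGTG) at -9 and 36, present in 7.15%. These matches describe the letters of the window only.

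**Figure D1:**
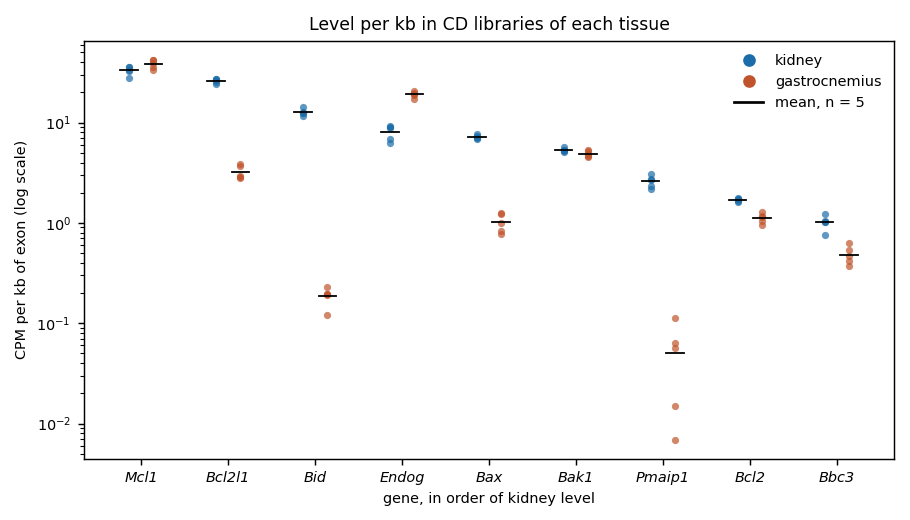
Level of each of the 9 genes in the CD libraries of kidney (blue) and gastrocnemius (orange), in CPM per kb of exon on a log axis; points are the 5 libraries and lines their means. *Mcl1* led in both tissues, and *Bid* stood at 12.7 CPM per kb in kidney and 0.187 in gastrocnemius; levels were scaled within each tissue and not between them, so the 2 colours show the order of genes and not a fold between tissues.

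Levels between genes were compared in CD as CPM per kb of merged exon. In kidney the order of mean levels was *Mcl1* at 33.1, *Bcl2l1* at 26.2, *Bid* at 12.7, *Endog* at 8.04, *Bax* at 7.21, *Bak1* at 5.36, *Pmaip1* at 2.60, *Bcl2* at 1.70 and *Bbc3* at 1.02 CPM per kb (n = 5). Only the ranges of *Endog* and *Bax* overlapped among neighbours in that order. In gastrocnemius the order was *Mcl1* at 38.5, *Endog* at 19.1, *Bak1* at 4.91, *Bcl2l1* at 3.23, *Bcl2* at 1.12, *Bax* at 1.02, *Bbc3* at 0.483, *Bid* at 0.187 and *Pmaip1* at 0.051 CPM per kb, with overlapping ranges for *Bcl2* and *Bax* alone. *Mcl1* was thus the most abundant member per length in both tissues, and the remaining ranks were rearranged.

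The tissues were compared in CD in a fit over all 30 libraries. With TMM scaling, 6 of the 8 genes tested in both tissues differed (edgeR quasi-likelihood test, adjusted over all genes), where 88.1% of the 18708 genes tested did. *Endog* was higher in gastrocnemius by 2.05 on the log2 scale (SE 0.095) and *Mcl1* by 1.02 (SE 0.063). *Bid*, the BH3-only protein that links death receptors to mitochondria, was lower there by a log2 difference of -5.29 (SE 0.13). *Bcl2l1* (-2.22, SE 0.12) and *Bax* (-2.02, SE 0.16) were lower too. *Pmaip1* entered this fit through its kidney counts alone and so had to differ, and it is given as levels only, at a mean of 7.12 CPM in kidney CD and 0.0189 to 0.307 CPM in the gastrocnemius CD libraries. Scaling by total count in place of TMM moved the median of all genes from -0.13 to -0.97. With it *Bak1* turned from 0.67 to -0.18 and *Bcl2* from 0.20 to -0.66, so these directions depend on the scaling, and *Bbc3*, at -0.28 with TMM and not called (adjusted p = 0.126), went to -1.13 and was called. *Bbc3* was also called at -0.41 when 10 counts were required in every library, at -0.37 without kidney CD replicate 1 and at -0.39 without gastrocnemius CD replicate 2. The directions of *Endog*, *Mcl1*, *Bid*, *Bcl2l1* and *Bax* were the same with both scalings, but the sizes moved. With total count *Mcl1* went from 1.02 to 0.16 (adjusted p = 0.0156) and *Endog* from 2.05 to 1.19, while *Bcl2l1* went to -3.08 and *Bax* to -2.87. The fit took all 30 libraries as independent, although some mice gave both tissues. The tissues were deposited as separate tables. The labels name a different extraction kit for each tissue, whereas the methods of the study name a single kit for both, so whether a kit difference goes with the tissue is not settled by the sources used here.

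As a description, the ratio of *Bax* to *Bcl2* per length had a median of 4.14 in kidney CD, 4.21 in WD and 4.28 in WD + CHP. In gastrocnemius it was 0.953, 0.829 and 0.750. Kidney libraries ran from 3.80 to 4.83 and gastrocnemius libraries from 0.525 to 1.64, with no overlap between the tissues.

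**Figure D2:**
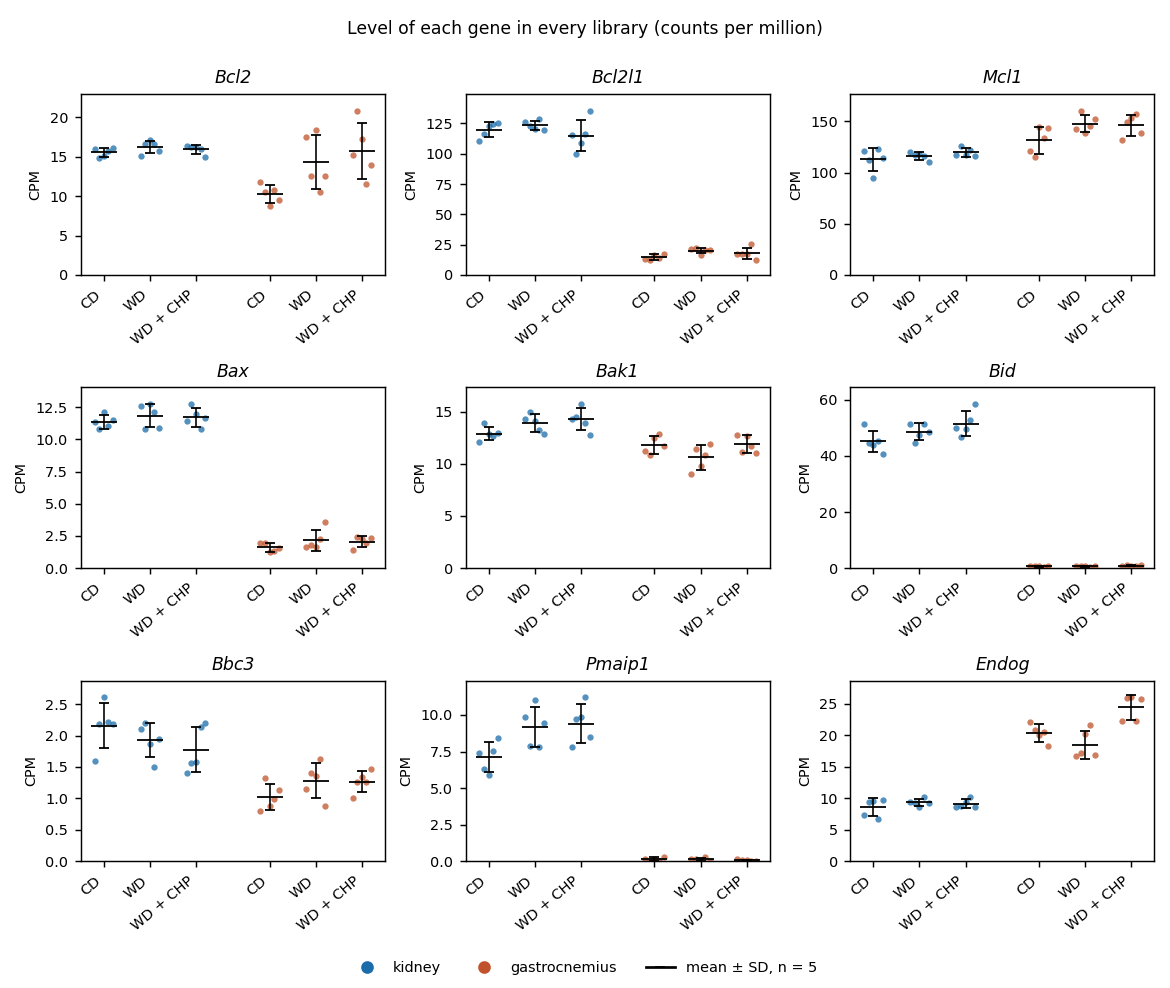
Level of each gene in CPM (TMM-scaled) in every library, kidney in blue and gastrocnemius in orange, by group; points are libraries, bars the mean ± SD (n = 5). *Endog* in gastrocnemius WD + CHP (22.2 to 26.0 CPM) lies above all WD libraries (16.7 to 21.6 CPM), whereas its 3 kidney groups overlap.

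The question of the first comparison was whether the western diet moved these genes. In kidney WD vs. CD, 0 of 9 genes were called at an adjusted p under 0.05, where 9.65% of all 17120 genes were (edgeR). At an unadjusted p under 0.05 it was 1 of 9, beside 24.9% of all genes. DESeq2 called 1 and limma-voom 0, beside 2029 and 1646 of 17120 genes. The median log2 difference of the 9 genes was 0.063, beside 0.0015 over all genes tested.

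That 1 gene was *Pmaip1* (ENSMUSG00000024521, GRCm38 chr18:66458533-66465565, plus strand), whose protein NOXA binds MCL1. It stood at 7.38, 6.33, 5.91, 7.53 and 8.42 CPM in CD replicates 1 to 5. The WD libraries held 9.89, 7.87, 10.99, 7.81 and 9.43 CPM, and the WD + CHP libraries 7.78, 9.72, 9.85, 11.2 and 8.47 CPM. Most WD and WD + CHP libraries lay above CD, but the ranges overlapped. The log2 difference was 0.37 for WD vs. CD (SE 0.12, adjusted p = 0.0584) and 0.032 for WD + CHP vs. WD (adjusted p = 0.955), with a 95% interval of -0.21 to 0.28 for the latter. WD vs. CD passed with DESeq2 (adjusted p = 0.0254), and without CD replicate 5, WD replicate 2 or WD replicate 4 (adjusted p = 0.0377, 0.0460 and 0.0415).

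WD + CHP vs. CD called 1 of 9 genes in kidney, beside 12.1% of all genes, and that was again *Pmaip1*, higher by 0.40 (SE 0.12, adjusted p = 0.0366). The mean was 9.41 ± 1.34 CPM against 7.12 ± 1.00 CPM (SD, n = 5 each). This comparison shares its CD libraries with WD vs. CD. The *Pmaip1* call did not hold without CD replicate 1, 2 or 3 (adjusted p = 0.0519, 0.0722 and 0.0722) or WD + CHP replicate 2, 3 or 4 (0.0638, 0.0755 and 0.1002). With 1 library left out its log2 difference ran from 0.33 to 0.48. The *Pmaip1* call was also lost with total count scaling (0.35, adjusted p = 0.0518), the adipocyte score (0.39, 0.0506) and the trend in length and GC removed (0.36, 0.0578).

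In the same comparison the kidney markers *Col1a1* (0.58, fibroblast), *Ttr* (0.86, on the liver list), *Calb1* (0.37) and *Slc12a3* (0.18, distal nephron), *Slc5a2* (0.30, proximal tubule) and *Pvalb* (0.51, on the muscle list) were higher, and *Slc4a1* (-0.37), *Cubn* (-0.21) and the endothelial *Pecam1* (-0.18) were lower. Of these, *Col1a1*, *Ttr*, *Calb1*, *Slc12a3*, *Slc5a2* and *Pvalb* were also called as higher in WD vs. CD, and *Cubn* as lower. The lists went both ways. In WD + CHP vs. CD, 2 of 5 liver markers tested had values above 0 (median -0.32), 1 of 3 on the muscle list (-0.058) and 2 of 7 of the distal nephron (-0.061). For the proximal tubule it was 4 of 8 (0.018), for fibroblasts 3 of 5 (0.18) and for endothelium 1 of 5 (-0.090). The summed level of 8 proximal tubule markers was 12220 to 13568 CPM in CD and 12527 to 14589 CPM under WD + CHP. The part of these in the *Pmaip1* result was not tested.

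The other BH3-only genes in kidney were not called. *Bid* (ENSMUSG00000004446, chr6:120891930-120916853, minus strand) held 51.2, 44.6, 43.8, 45.4 and 40.9 CPM in CD and 49.9, 46.7, 49.6, 52.7 and 58.6 CPM in WD + CHP, a log2 difference of 0.19 (SE 0.065, adjusted p = 0.0699). It crossed the threshold with DESeq2 (0.0451), with the adipocyte score (0.0379), with the length and GC trend removed (0.0432), and without CD replicate 1 (0.0260) or WD + CHP replicate 2 (0.0434). *Bbc3* (ENSMUSG00000002083, chr7:16308393-16318205, plus strand), the p53-induced PUMA gene, had 54 to 100 counts per kidney library, and its mean was 2.16 CPM in CD against 1.92 CPM in WD, with 1.78 CPM under WD + CHP. For *Bbc3* the 95% interval of WD vs. CD ran from -0.49 to 0.16, so changes of that size were not resolved at this depth.

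The effectors and guardians of the kidney were close between groups. *Bak1* (ENSMUSG00000057789, chr17:27019810-27029009, minus strand) had a mean of 12.9 CPM in CD, against 13.9 CPM in WD, with 14.3 CPM under WD + CHP, and WD + CHP vs. CD gave 0.14 (adjusted p = 0.116). Without WD + CHP replicate 5 that *Bak1* value was 0.18 and was called (adjusted p = 0.0477). *Bax* (ENSMUSG00000003873, chr7:45461697-45466898, minus strand) stayed between 10.8 and 12.8 CPM in all 15 kidney libraries. *Bcl2* (ENSMUSG00000057329, chr1:106538178-106714274, minus strand) stayed between 14.8 and 17.1 CPM. *Bcl2l1* (ENSMUSG00000007659, chr2:152780668-152831728, minus strand) ran from 99.7 to 135 CPM, both extremes in WD + CHP. *Mcl1* (ENSMUSG00000038612, chr3:95658788-95663176, plus strand), a guardian of short half-life, ran from 95.02 CPM in a CD library to 126 CPM in a WD + CHP library.

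In kidney WD + CHP vs. WD, 0 of 9 genes were called, where 0.105% of all genes were (edgeR), and 0 had an unadjusted p under 0.05, beside 11.4%. DESeq2 and limma-voom also called 0, beside 194 and 25 of 17120 genes. The log2 differences ran from -0.12 (*Bbc3*) to 0.079 (*Bid*), with a median of -0.014 beside -0.0058 over all genes. The narrowest 95% interval was that of *Bcl2* (-0.12 to 0.064), and the widest were those of *Bbc3* (-0.45 to 0.22) and *Pmaip1*.

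**Figure D3:**
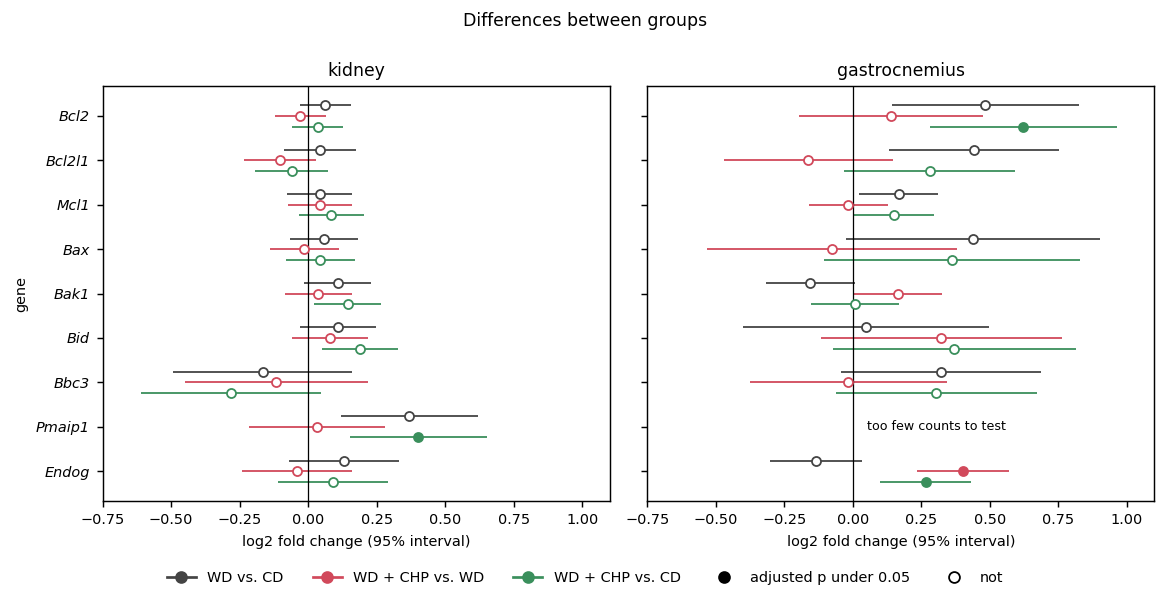
Log2 fold change with its 95% interval for each gene in kidney and gastrocnemius, for WD vs. CD (grey), WD + CHP vs. WD (red) and WD + CHP vs. CD (green); filled points have an adjusted p under 0.05. The filled points are *Pmaip1* in kidney (0.40), *Bcl2* in gastrocnemius (0.62) and *Endog* in gastrocnemius (0.40 and 0.27).

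In gastrocnemius WD vs. CD, 0 of 8 genes were called, where 8.63% of 15419 genes were (edgeR). At an unadjusted p under 0.05 it was 3 of 8, beside 23.7% of all genes, and these were *Bcl2*, *Bcl2l1* and *Mcl1*, the guardians of the set. Without WD replicate 5 their log2 differences were 0.53, 0.44 and 0.16 (adjusted p = 0.0702, 0.103 and 0.211). DESeq2 called 2 and limma-voom 0, beside 1751 and 1334 of 15419 genes. The median log2 difference of the 8 genes was 0.24, beside 0.0013 over all genes tested.

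*Bcl2* in gastrocnemius held 11.8, 10.5, 8.75, 10.8 and 9.49 CPM in CD. The WD libraries held 17.5, 12.6, 18.4, 10.5 and 12.6 CPM, and the WD + CHP libraries 15.2, 20.9, 17.3, 11.6 and 13.9 CPM. Both western diet groups were spread more widely than CD, with 1 library of each overlapping the CD range. WD vs. CD gave a log2 difference of 0.48 (SE 0.16, adjusted p = 0.0734), and WD + CHP vs. WD gave 0.14 (SE 0.16, adjusted p = 0.775). WD vs. CD passed with DESeq2 (0.0325), with total count scaling (0.0439), with the length and GC trend removed (0.0485) and without WD replicate 4 (0.0338).

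WD + CHP vs. CD called 2 of 8 genes in gastrocnemius, beside 9.40% of all genes, and *Bcl2* was 1 of them, higher by 0.62 (SE 0.16, adjusted p = 0.0235). It held under all 11 alternatives other than leaving out a library, at 0.60 to 0.70. Without CD replicate 3 or 5, or WD + CHP replicate 2 or 3, the *Bcl2* adjusted p was 0.0651, 0.0544, 0.0673 and 0.0618. WD + CHP replicates 2 and 3, the close pair over all genes, held the 2 highest *Bcl2* levels of their group and also its 2 highest *Endog* levels. An antisense gene, D630008O14Rik, shares 558 exon bases (6.1%) with *Bcl2* and had 0 to 2 counts per library.

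*Bcl2l1* in gastrocnemius held 13.3, 12.7, 16.8, 13.6 and 17.6 CPM in CD and 21.3, 22.0, 16.2, 20.8 and 20.3 CPM in WD. In WD + CHP it held 17.4 CPM in each of replicates 1 to 3, 25.3 in replicate 4 and 12.3 in replicate 5. All WD libraries but 1 were above CD, while the WD + CHP libraries spanned both groups. WD vs. CD gave 0.44 (SE 0.15, adjusted p = 0.0715), which passed with DESeq2 (0.0345), total count scaling (0.0269) and only the CD and WD libraries in the fit (0.0278). With the adipocyte score as a covariate *Bcl2l1* was 0.18 (adjusted p = 0.893), and the *Bcl2* value of the same comparison was 0.43 (0.720). The log2 difference of WD + CHP vs. WD was -0.16 (SE 0.15, adjusted p = 0.697).

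*Mcl1* in gastrocnemius had a mean of 132 ± 13.1 CPM in CD against 148 ± 8.55 CPM in WD, with 146 ± 10.3 CPM under WD + CHP (SD, n = 5 each). WD vs. CD gave 0.17 (SE 0.068, adjusted p = 0.143), which passed only with total count scaling (0.24, adjusted p = 0.0269) and was 0.089 with the adipocyte score (0.885). Between WD + CHP and WD it was -0.017, with a 95% interval of -0.16 to 0.13.

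Of the effectors, *Bax* in gastrocnemius had 63 to 186 counts per library. The highest, WD replicate 5 at 3.56 CPM, is the library that stood apart over all genes, and the other WD libraries held 1.60 to 2.25 CPM. WD vs. CD gave 0.44 (SE 0.22, adjusted p = 0.238), and without that library 0.19. *Bak1* had a mean of 11.8 ± 0.84 CPM in CD against 10.6 ± 1.16 CPM in WD, with 11.9 ± 0.83 CPM under WD + CHP. The log2 difference of *Bak1* in WD + CHP vs. WD was 0.16 (SE 0.076), with an unadjusted p of 0.0472 and an adjusted p of 0.392. *Ggnbp1*, a testis-associated gene on the other strand that shares 437 exon bases (18.2%) with *Bak1*, gave 0.11 in the same comparison (adjusted p = 0.640).

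The BH3-only genes were scarce in muscle. *Bid* had 21 to 64 counts per library and *Bbc3* 41 to 88, and *Pmaip1* was below the filter. *Bid* shares 628 of its exon bases (17.7%) with *Bcl2l13* on the opposite strand, which had 5388 to 6571 counts per gastrocnemius library and gave -0.0015 for WD + CHP vs. WD (SE 0.046, adjusted p = 0.994). With the strand setting not given, reads of the shared bases cannot be assigned to either gene. Between WD + CHP and WD the log2 difference was 0.32 for *Bid* (SE 0.21, 95% interval -0.12 to 0.76) and -0.017 for *Bbc3* (SE 0.17, -0.38 to 0.34). These intervals are wide beside those of *Mcl1*.

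WD + CHP vs. WD called 1 of 8 genes in gastrocnemius, where 0.409% of all genes were called, and 0.0649% were called as higher. The gene was *Endog* (ENSMUSG00000015337, chr2:30171493-30174069, plus strand), the nuclease of the set. Its CD libraries held 22.0, 20.9, 19.97, 20.5 and 18.3 CPM. The WD libraries held 16.7, 17.2, 20.2, 21.6 and 16.9 CPM, and the WD + CHP libraries 22.3, 25.9, 26.0, 22.2 and 25.7 CPM. Every WD + CHP library was above every WD library and every CD library, and the WD and CD ranges overlapped. Groups with WD + CHP wholly higher occurred in 1.18% of genes for WD + CHP vs. WD and in 4.55% for WD + CHP vs. CD.

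*Endog* was higher by 0.40 on the log2 scale in WD + CHP vs. WD (SE 0.079, unadjusted p = 9.59e-05, adjusted p = 0.0334), with means of 24.4 ± 2.00 and 18.5 ± 2.23 CPM (SD, n = 5 each). WD vs. CD gave -0.14 for *Endog* (SE 0.079, adjusted p = 0.316), and WD + CHP vs. CD gave 0.27 (SE 0.078, adjusted p = 0.0421). Each of these comparisons shares libraries with the other 2. Of the 15419 genes tested in WD + CHP vs. WD, *Endog* ranked 44 by p and 1097 by the size of its log2 difference.

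The direction of *Endog* in WD + CHP vs. WD was the same under all 11 alternatives and with each of the 10 libraries left out, from 0.31 to 0.53, but its call was not. The adjusted p was 0.000652 with DESeq2 and 0.0289 with limma-voom. It was 0.0890 with total count scaling, 0.0783 with only the 2 groups compared in the fit, 0.104 with the length and GC trend removed, and 0.757 with the adipocyte score as a covariate, where the log2 difference was 0.53 at an unadjusted p of 0.0030. Without WD replicate 1, 2 or 5 the adjusted p of *Endog* was 0.113, 0.103 and 0.0619, and without WD + CHP replicate 2, 3 or 5 it was 0.0754, 0.105 and 0.113. For WD + CHP vs. CD the adjusted p of *Endog* was 0.0868, 0.0664 and 0.106 without CD replicate 3, 4 or 5, and 0.0965, 0.106 and 0.0925 without WD + CHP replicate 2, 3 or 5. That value also fell to 0.15 (adjusted p = 0.229) with the length and GC trend removed.

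**Figure D4:**
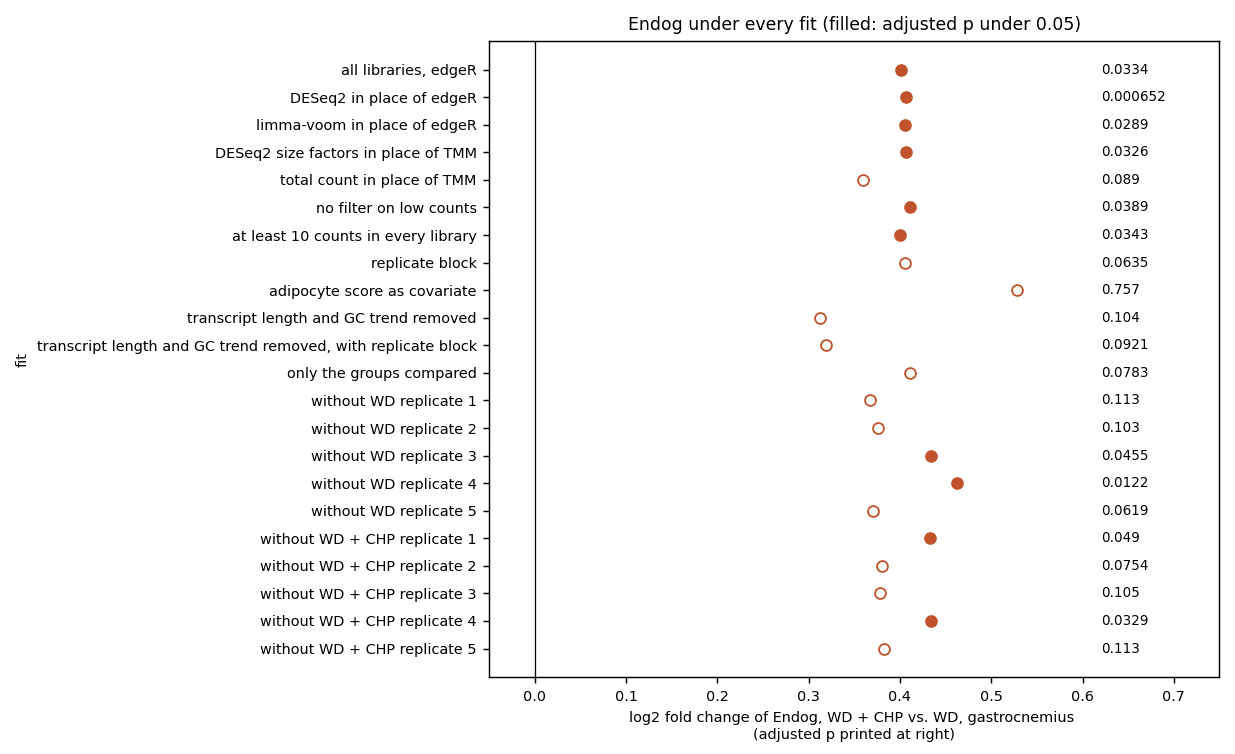
Log2 fold change of *Endog* for WD + CHP vs. WD in gastrocnemius under each fit, with the adjusted p at the right; filled points have an adjusted p under 0.05. All values lie between 0.31 and 0.53, and 5 of the 11 alternatives and 4 of the 10 fits without 1 library are filled.

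Other measures moved in the same libraries. Of 8 adipocyte markers, 4 were lower in WD + CHP vs. WD (*Cidec*, *Adipoq*, *Plin1* and *Lep*) and 0 were higher. The summed level of the 8 was 427 to 551 CPM in CD, against 485 to 661 CPM in WD, then 374 to 632 CPM under WD + CHP, with no marker at 0 in every library. The summed level of 10 muscle fibre markers was 203842 to 235612 CPM in WD and 212318 to 247045 in WD + CHP, with 0 called between those groups. All 4 erythroid markers tested were lower in WD + CHP vs. WD at an unadjusted p under 0.05 and 0 were called, with a median log2 difference of -1.37. Their list summed to 3.83 to 49.4 CPM in WD and 4.31 to 20.3 CPM in WD + CHP, with no marker at 0 in every library. The 3 liver markers tested were likewise lower (median -3.76) with 0 called, and their list summed to 0.536 to 58.3 CPM in WD and 0.362 to 2.26 CPM in WD + CHP. All 6 leukocyte markers tested had values below 0 (median -0.38), 1 of them at an unadjusted p under 0.05 and 0 called, and the list summed to 49.3 to 69.7 CPM in WD and 35.2 to 70.6 CPM in WD + CHP. Mitochondrially encoded genes took 9.09% to 10.5% of counts in WD and 9.49% to 11.5% in WD + CHP. The part of these in the *Endog* result was not tested beyond the fit with the adipocyte score. That score went largely with the WD and WD + CHP groups, so the fit cannot tell it from treatment.

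Markers also moved in the comparisons with CD. In gastrocnemius WD vs. CD, 5 of 8 adipocyte markers were called, with *Lep* (3.96), *Cidec* (1.38), *Adipoq* (1.00) and *Plin1* (0.93) higher and *Cfd* (-1.59) lower. *Podxl*, on the podocyte list, was called as higher (0.33, adjusted p = 0.0040). All 4 erythroid markers tested had values above 0 (median 1.60), 3 of them at an unadjusted p under 0.05 and 0 called. Of the 10 muscle fibre markers, 7 had an unadjusted p under 0.05, and *Ckm* (-0.26) and *Acta1* (-0.22) were called as lower, with a list sum of 231908 to 272168 CPM in CD. In gastrocnemius WD + CHP vs. CD, *Lep* (2.08) and *Podxl* (0.48) were higher and *Cfd* (-1.59) and the fibroblast marker *Dcn* (-0.57) lower. Of 5 fibroblast markers, 3 had an unadjusted p under 0.05 there, with a list sum of 470 to 794 CPM in CD and 434 to 611 CPM under WD + CHP. All 3 liver markers tested were lower (median -3.45) with 0 called. The part of these in the *Bcl2*, *Bcl2l1* and *Endog* values was not tested beyond the adipocyte score. In WD vs. CD that score went largely with the groups, so the fit cannot tell it from diet.

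*Endog* shares 379 of its exon bases (35.7%) with *Spout1*, a methyltransferase gene on the opposite strand, and the strand setting of the counts is not given in the sources used here. *Spout1* had 292 to 372 counts per gastrocnemius library and gave 0.00076 for WD + CHP vs. WD (SE 0.065, adjusted p = 0.997). In kidney the means of *Endog* were 8.55, 9.36 and 9.11 CPM with chow, western diet and western diet plus CHP, and WD + CHP vs. WD gave -0.040 (95% interval -0.24 to 0.16).

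The difference between the tissues was tested directly. *Pmaip1* is left out, since its muscle counts were too low. For WD vs. CD the difference was called for 0 of 8 genes, beside 4.13% of genes, and for WD + CHP vs. WD for 0 of 8, beside 0.347% (edgeR). At an unadjusted p under 0.05 there were 4 (*Bcl2*, *Bcl2l1*, *Bak1* and *Bbc3*) in the former, beside 17.7% of all genes, and 1 (*Endog*) in the latter, beside 11.8%. *Endog* came nearest in WD + CHP vs. WD, at 0.45 higher in gastrocnemius than in kidney (SE 0.13, unadjusted p = 0.0020, adjusted p = 0.130), and passed with DESeq2 (adjusted p = 0.0460). DESeq2 called 1 of the members there, beside 286 of 18708 genes, and 0 in WD vs. CD, beside 1100. *Bak1* (-0.26, adjusted p = 0.137), *Bcl2l1* (0.40, adjusted p = 0.177) and *Bcl2* (0.42, adjusted p = 0.195) came nearest in WD vs. CD. A response of these genes particular to 1 tissue was therefore not shown by edgeR.

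Genes outside the set whose pattern over the 15 libraries of a tissue was most like that of a called gene are given as a description. For *Endog* in gastrocnemius they were *Coq9* (r = 0.893), *Usf2* (0.886) and *Snx32* (0.877), out of 10817 genes, with log2 CPM over libraries that share the group differences. For *Bcl2* in gastrocnemius they were *Zranb3* (0.947), *Ptpn3* (0.931) and *Dlat* (0.926). In kidney, *Pmaip1* was most like *Sfpq* (0.871), *Taf12* (0.861) and *Nat8f7* (0.858), out of 12406.

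The wider death machinery, 87 listed genes of 8 groups, was read beside the 9. In kidney WD vs. CD, 15 of 81 tested genes were called (18.5%, beside 9.65% of all genes), 7 higher and 8 lower. Among the caspases and their inhibitors, *Casp2* and the apoptosome caspase *Casp9* fell, while the inhibitor *Birc5* rose from 0.664 to 1.14 CPM. *Trp53* fell by 0.19 (adjusted p = 0.018), and the BH3-only gene *Bmf* fell by 0.50 (adjusted p = 0.0044), with groups that did not overlap for either, as in 4.67% of genes. *Dnase1*, a secreted nuclease, rose from 262 to 428 CPM, and the stress factors *E2f1* (0.61, adjusted p = 0.011) and *Ddit3* (0.46, adjusted p = 0.029) rose. Of the 12 genes of mitochondrial DNA upkeep, *Esrra* and *Mgme1* rose and *Polg* and *Polg2* fell. The mitochondrial death factors and the death receptors had 0 called, with 2 and 2 at an unadjusted p under 0.05.

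WD + CHP vs. CD called 13 of 81 in kidney (16.0%, beside 12.1%), among them *Trp53* (-0.26) and *Bmf* (-0.47), and also *Cycs*, which encodes cytochrome c, at 164 against 131 CPM. WD + CHP vs. WD called 0 of 81 (edgeR, beside 0.105% of all genes), and 5 of them had an unadjusted p under 0.05, beside 11.4%.

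In gastrocnemius WD vs. CD, 7 of 79 genes were called (8.86%, beside 8.63% of all genes), 2 higher and 5 lower. With the adipocyte score as a covariate 3 of all 15419 genes were called, so at least 4 of these 7 calls were lost there. That score went largely with the groups, so this fit cannot tell it from diet. *Bmf* fell by 0.56 (adjusted p = 0.0057), the BH3-only gene *Hrk* fell from 0.677 to 0.341 CPM, and the guardian *Bcl2l2*, which encodes BCL-W, rose by 0.23 (adjusted p = 0.0060). *Tnfrsf21*, a death receptor, fell by 0.38 and the adaptor *Tradd* rose by 0.32. *Casp12*, a caspase tied to the endoplasmic reticulum, fell by 0.35, and *Chac1*, a target of the unfolded protein response, fell from 126 to 56.2 CPM.

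WD + CHP vs. WD called 1 of 79 in gastrocnemius (1.27%, beside 0.409%), the p53 target *Phlda3*, at 234 against 174 CPM (0.43, SE 0.089, adjusted p = 0.0452), with groups that did not overlap. Of the 14 p53 genes, 5 had values above 0, with a median of -0.037 beside -0.013 over all genes. With the adipocyte score as a covariate 0 of 15419 genes were called in this comparison, so the *Phlda3* call was lost there. That score went largely with the groups, so this fit cannot tell it from treatment. *Phlda3* and *Endog* were the called genes of the set and its lists in that comparison. The 7 genes of the DNA-cutting list, among them the *Endog* relative *Exog*, gave 0 calls and 0 at an unadjusted p under 0.05, with a list median of 0.049 beside -0.013 over all genes. WD + CHP vs. CD called 11 of 79 (13.9%, beside 9.40%), 7 higher and 4 lower. *Phlda3* (0.58), *Ppif* (0.35), the cyclophilin of the permeability pore, *Tradd* (0.43) and *Bcl2l2* (0.21) were higher, and *Bmf* (-0.52) and *Tnfrsf21* (-0.27) were lower. The p53 list went both ways, with *Phlda3* and *Aen* (0.12) called as higher and *Sesn1* (-0.54, adjusted p = 0.033) and *Eda2r* (-0.52, adjusted p = 0.037) as lower. *Tomm20* (0.15) and *Esrra* (0.34) were the remaining calls.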

How the data were processed

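RNA-seq libraries of kidney and gastrocnemius from CD, WD and WD + CHP mice were analysed, 5 per group and tissue. The authors deposited raw counts, whole reads per gene, from cleaned reads aligned with STAR 2.7.3a (GRCm38/mm10, per the submitters' processing notes). The counting tool and its strand setting are not given in the sources used here. Each library is taken as 1 mouse, as the methods describe. The sample of each table column was found from the number in its label (0 columns had none), and liver libraries were not analysed here.

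The 9 genes, the lists, the rules and the alternatives were chosen with earlier results of these data known. Named genes were the 9 members, up to 6 pathway genes per comparison with the smallest p among those called, with the other called genes of a list counted or named beside them, less some list genes that are counted but not reported by name here, and the 3 genes most like each called member (Pearson correlation of log2 CPM, prior count 2).

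Counts were fitted in edgeR 4.0.16 (R 4.3.3): filterByExpr with a minimum count of 10, TMM scaling, the 3 groups of a tissue in 1 model, quasi-likelihood F test, two-sided, Benjamini-Hochberg adjustment over all genes kept, threshold 0.05. Tissues were compared in a joint model of 6 groups. CPM used TMM-scaled library sizes within a tissue. Exon lengths, gene positions and overlaps came from GENCODE M21 (GRCm38). Mean differences below the counting and animal spread of a gene cannot be resolved, most of all for genes under about 100 counts. The script was tested on simulated data. Alternatives were DESeq2 1.42.0, limma-voom (limma 3.58.1), total count or DESeq2 size factors as scaling, leaving low counts in, a floor of 10 counts per library, the replicate number as a block, an adipocyte score as a covariate, the trend with transcript length and GC content removed (with and without the block), only the groups compared, and each library left out in turn. Plots were drawn with matplotlib 3.10.9.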

Additional observations from a re-analysis of the deposited data

Results flagged for a closer look

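*Bcl2* in kidney WD + CHP replicate 5 stood at 14.99 CPM, and the next of the 5 libraries at 15.97 CPM. The gap took 0.737 of the group's range, above the limit of 0.71 for 5 samples. It was the only one of 54 groups of 5 to pass, and chance passes about 1 in 20. Without this library, *Bcl2* gave -0.0066 for WD + CHP vs. WD and 0.058 for WD + CHP vs. CD, and was called in neither.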

How the results depend on the processing

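Of 746 single-gene values under alternatives other than leaving out a library, 693 kept their direction and their side of the threshold, 16 lost a call, 16 gained one and 21 changed sign, all of the last from values that were not called but *Bak1* between the tissues. Counts of called members changed as follows. In kidney, DESeq2 called 1 in WD vs. CD (beside 2029 of 17120 genes) and 2 in WD + CHP vs. CD (beside 2421). In the latter, total count scaling and the replicate block called 0 members, beside 2474 and 1970 genes. The length and GC correction with the block called 2 members there, beside 1892 genes. They were *Bid* (0.22, adjusted p = 0.0419) and *Bak1* (0.18, 0.0390), with *Pmaip1* lost (0.0857). In gastrocnemius WD vs. CD, DESeq2 called 2 (beside 1751 of 15419 genes), total count scaling 3 (beside 1852) and the length and GC correction 1 (beside 1533). The fit of only the groups compared called 1 there (beside 1009 of 15147 genes). In gastrocnemius WD + CHP vs. WD 0 members were called with total count scaling, the replicate block, the adipocyte score, the length and GC correction without and with the block, and only the groups compared. Over all genes these fits called 54, 44, 0, 60, 59 and 49, in that order. In gastrocnemius WD + CHP vs. CD 1 member was called with total count scaling, no filter, the block and the length and GC correction without and with the block. Over all genes these fits called 1394, 1047 (of 31251), 1242, 1590 and 1439, in that order. DESeq2 called 1 for the difference between tissues in WD + CHP vs. WD, beside 286 of 18708 genes. The causes were not tested.

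Signs changed as follows. With total count scaling, kidney WD + CHP vs. WD gave -0.0030 for *Pmaip1*, WD + CHP vs. CD gave -0.018 for *Bcl2* and -0.0083 for *Bax*, the difference between tissues in WD vs. CD gave 0.020 for *Bid*, and gastrocnemius vs. kidney gave -0.66 for *Bcl2* and -0.18 for *Bak1*. With the length and GC correction, without and with the block, kidney WD + CHP vs. WD gave 0.0054 and 0.0051 for *Endog* and 0.040 and 0.042 for *Bax*, and gastrocnemius gave 0.021 and 0.018 for *Mcl1* in WD + CHP vs. WD and -0.063 and -0.060 for *Bak1* in WD + CHP vs. CD. Limma-voom gave 0.0013 for *Bbc3* in gastrocnemius WD + CHP vs. WD. With the adipocyte score, gastrocnemius WD vs. CD gave -0.21 for *Bid* and -0.23 for *Bax*, and WD + CHP vs. WD gave 0.098 for *Bcl2l1*, 0.059 for *Mcl1*, 0.096 for *Bbc3* and 0.59 for *Bax*.

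With 1 library left out in turn, 899 of 960 values were on the same side and 30 changed sign. Members called ran from 0 to 1 in kidney WD vs. CD and gastrocnemius WD vs. CD and WD + CHP vs. WD, from 0 to 2 in both WD + CHP vs. CD comparisons, and from 7 to 8 between the tissues. The last count includes *Pmaip1*, whose call between the tissues was fixed by its kidney counts. In kidney WD vs. CD, *Mcl1* ran from -0.0090 to 0.080. In kidney WD + CHP vs. WD, *Bax* ran from -0.044 to 0.016 and *Pmaip1* from -0.038 to 0.11. In gastrocnemius WD vs. CD, *Bid* ran from -0.069 to 0.15. In gastrocnemius WD + CHP vs. WD, *Mcl1* ran from -0.044 to 0.017, *Bbc3* from -0.12 to 0.083 and *Bax* from -0.17 to 0.17. In gastrocnemius WD + CHP vs. CD, *Bak1* ran from -0.019 to 0.046. In the difference between tissues in WD vs. CD, *Bid* ran from -0.18 to 0.038 and *Pmaip1* from -0.80 to 0.078. In the difference between tissues in WD + CHP vs. WD, *Bcl2l1* ran from -0.21 to 0.060, *Bbc3* from -0.0075 to 0.21 and *Bax* from -0.15 to 0.19.

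The replicate numbers paired the samples in no comparison, since same-numbered libraries correlated by -0.13 to 0.15 and at most 2 of 5 pairs passed 0.1. With the replicate block *Endog* gave 0.41 (adjusted p = 0.0635) in WD + CHP vs. WD and 0.27 (0.0714) in WD + CHP vs. CD, *Pmaip1* 0.40 (0.0593) in kidney WD + CHP vs. CD, while *Bcl2* remained called in gastrocnemius WD + CHP vs. CD (0.60, adjusted p = 0.0255). At most 2 of 5 libraries correlated best with their own number. Over all genes, kidney WD + CHP vs. WD had 18 calls, but 70 with the block, 194 with DESeq2, 37 with no filter, 6 with the length and GC correction and 0 with only the groups compared. Gastrocnemius WD + CHP vs. WD had 63, but 249 with DESeq2, 40 with no filter and 0 with the adipocyte score, which also took WD vs. CD from 1330 to 3. Of the markers in that score, *Lep*, *Cidec*, *Plin1* and *Adipoq* did not overlap between WD and CD, nor between WD + CHP and WD. The score thus went largely with these groups, and this fit cannot tell adipocyte content from group. The difference between tissues in WD + CHP vs. WD had 65, but 286 with DESeq2, 99 with total count scaling and 37 with no filter, and that in WD vs. CD went from 772 to 1372 with total count scaling. With 1 library left out, the calls over all genes ran from 0 to 97 in kidney WD + CHP vs. WD (0 in 5 cases, leaving out WD replicates 1, 4 and 5 and, in the treated group, replicates 3 and 4), from 12 to 92 in gastrocnemius WD + CHP vs. WD (12 without WD + CHP replicate 5) and from 19 to 145 for the tissue difference in WD + CHP vs. WD (19 and 145 without gastrocnemius WD replicate 1 and 4). They ran from 1202 to 2150 in kidney WD + CHP vs. CD (2070 with all libraries; lowest without WD + CHP replicate 4) and from 873 to 1617 in gastrocnemius WD + CHP vs. CD (1450; lowest without WD + CHP replicate 3), so the shares of all genes printed beside the members move with single libraries. Depth limits *Bbc3*, *Bid* and *Bax* in gastrocnemius, at 21 to 186 counts per library.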
